A study of Mus musculus with 19 samples.

Results

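The calcium/calmodulin-dependent kinases (CaMKs) were followed in cultured mouse hippocampal neurons whose NMDA receptors had been blocked for 6 h. The members were taken by name: the 20 array probes annotated to Camkk1, Camkk2, Camk1, Camk1d, Camk1g, Camk2a, Camk2b, Camk2d, Camk2g or Camk4, which make 10 of the 27574 genes named on the array. All 10 genes were tested, through 18 probes that passed the filter on dim signals, among 19203 genes with values in every group. Dissociated neurons at day 21 in culture received vehicle (5 arrays), 100 µM AP5 (5 arrays), 100 nM NVP-AAM077 (NVP, 4 arrays) or 1 µM of a compound that the labels name Ro25-4891 (Ro25, 5 arrays). AP5 is a competitive antagonist of NMDA receptors in general. NVP-AAM077 is used as an antagonist that prefers receptors with the GluN2A subunit. Each array carried RNA of the treated neurons in the red dye (Cy5) and in the green dye (Cy3) a purchased reference RNA pooled for mouse studies. The labels name no mouse strain, age or genotype, and they do not say whether replicates came from separate cultures. The spread behind each p-value is that between arrays of a group, and how much of it is technical is not known. Arrays of a group also differed in astrocyte markers, as given below.

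NMDA receptors admit calcium when glutamate binds and the membrane is depolarised. Calcium binds calmodulin, and calcium-calmodulin switches on the CaMKs. Camkk1 and Camkk2 encode the upstream kinases CaMKKα and CaMKKβ, which phosphorylate and activate the CaMKI enzymes (Camk1, Camk1d, Camk1g) and CaMKIV (Camk4). CaMKII (Camk2a, Camk2b, Camk2d and Camk2g for its α, β, δ and γ subunits) needs no upstream kinase, assembles into large holoenzymes and is among the most abundant proteins of the excitatory synapse. CaMKIV works mainly in the nucleus, where it phosphorylates the transcription factor CREB. The measurement here is RNA level, not kinase activity.

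The upstream kinases Camkk1 and Camkk2 carried the changes with the largest sizes in the family, in opposite directions, and the sequences upstream of their RefSeq start sites are shown so that the 2 genes can be compared. Each line gives the 250 bases before the start, 5′ to 3′ on the gene's strand, from RefSeq on GRCm38.p6. Capitals mark TGACG (the core of the cyclic AMP response element, to which CREB binds; CGTCA on the other strand) and GGGCGG (the GC box; CCGCCC on the other strand), and these motifs did not overlap in either sequence.
Camkk1 (chr11:73018738-73018987, + strand): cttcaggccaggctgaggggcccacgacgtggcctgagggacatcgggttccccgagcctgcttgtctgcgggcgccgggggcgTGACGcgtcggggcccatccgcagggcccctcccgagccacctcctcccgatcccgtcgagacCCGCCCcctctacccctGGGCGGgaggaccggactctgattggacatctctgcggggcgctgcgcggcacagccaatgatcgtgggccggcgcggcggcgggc
Camkk2 (chr5:122779411-122779660, - strand): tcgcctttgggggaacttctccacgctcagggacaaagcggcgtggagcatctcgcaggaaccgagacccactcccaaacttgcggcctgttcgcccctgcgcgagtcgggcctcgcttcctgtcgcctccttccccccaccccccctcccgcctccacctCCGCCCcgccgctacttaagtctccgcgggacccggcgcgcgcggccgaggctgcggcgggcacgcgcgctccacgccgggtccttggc
The Camkk1 stretch held 1 TGACG, 166 to 162 bases before the start, and 2 GC boxes. The Camkk2 stretch held 1 GC box and no TGACG on either strand. Over 32851 RefSeq promoters of the same length, 17.8% held TGACG or its complement, 32.7% held a GC box and 1.55% held the full element TGACGTCA. None of the 8 listed start sites of the 7 kinases searched (Camkk1, Camkk2, Camk1, Camk1d, Camk1g, Camk2b and Camk2d) held TGACGTCA. Camk1 was the only other kinase of these with TGACG. These matches describe letters in a window and do not show binding.

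Values are log2 ratios of neuron RNA over reference RNA after normalization, so 1 unit is a doubling relative to the reference. They compare groups for 1 gene and do not rank genes by abundance. A gene is represented by its brightest kept probe. Changes were tested with limma over all 19 arrays, and adjusted p-values are Benjamini-Hochberg values over the 19203 genes, with a threshold of 0.05. With AP5, 2 kinases were higher than in vehicle (Camkk1 and Camk2b), 1 was lower (Camkk2) and 7 did not pass the threshold. The background was high: 18.0% of all genes passed in this comparison, 10.8% as higher and 7.22% as lower. With NVP and with Ro25, 0 of 10 kinases and 0 of 19203 genes passed in limma. At an unadjusted p under 0.05, 1591 genes (8.29%) and 1 kinase stood out with NVP, and 1181 genes (6.15%) and 1 kinase with Ro25; the kinase was Camk2b in both. In bulk RNA, a change in the number of cells of a type and a change in RNA per cell cannot be told apart.

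**Figure D1:**
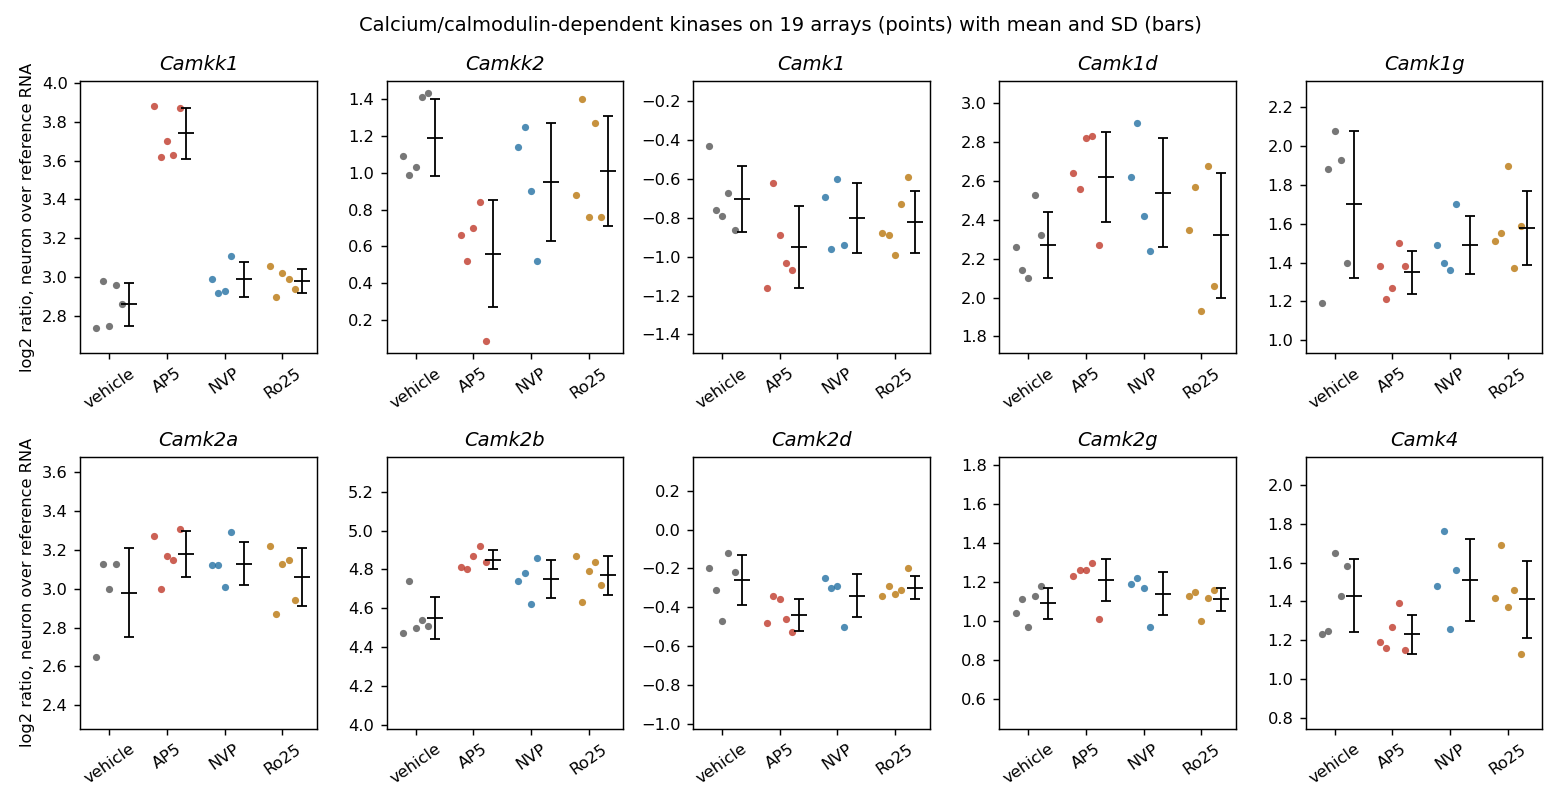
Log2 ratio of neuron RNA over reference RNA (vertical axis; each panel has its own scale) for the 10 kinases on each of 19 arrays, in vehicle, AP5, NVP and Ro25; points are arrays and bars give the mean and SD. Camkk1 stands apart with AP5, between 3.62 and 3.88 against 2.74 to 2.98 in vehicle, while most other panels show overlapping groups.

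Camkk1 (CaMKKα) gave the clearest change. Its ratio was 3.88, 3.62, 3.70, 3.63 and 3.87 on the 5 AP5 arrays and 2.74, 2.98, 2.75, 2.96 and 2.86 on the 5 vehicle arrays. It was 2.99, 2.92, 2.93 and 3.11 on the 4 NVP arrays and 3.06, 2.90, 3.02, 2.99 and 2.94 on the 5 Ro25 arrays. Every AP5 array lay above every array of the other 3 groups, and vehicle, NVP and Ro25 overlapped. Taken pair by pair, groups did not overlap, in either direction, in 11.9% of all genes for AP5 and vehicle. The shares were 8.13% for AP5 and NVP and 6.84% for AP5 and Ro25. The share with all AP5 arrays above the other 3 groups at once was not counted. Camkk1 was higher with AP5 by 0.88 on the log2 scale (SE 0.07, 95% confidence interval 0.74 to 1.02, limma adjusted p = 5.56e-08), which is 1.84-fold (1.67 to 2.02). By absolute size this change ranked 58 among the 19203 genes. The unprocessed red signal went the same way, with a median of 42607 (36879 to 48241) on AP5 arrays and 16332 (13113 to 19911) on vehicle arrays. Camkk1 had a single probe, at chr11:72858143-72858202 on the plus strand of the mm8 assembly, per the file headers.

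Camkk1 also separated AP5 from the other antagonists. It was 0.75 higher with AP5 than with NVP (0.60 to 0.89, adjusted p = 1.61e-06) and 0.76 higher than with Ro25 (0.62 to 0.89, adjusted p = 6.24e-07). It was the only one of the 10 kinases that passed in either comparison, in which 4.24% and 6.06% of all genes passed. NVP minus vehicle was 0.13 (-0.01 to 0.28, adjusted p = 0.659) and Ro25 minus vehicle 0.12 (-0.01 to 0.26, adjusted p = 0.861). These intervals leave room for a rise with NVP or Ro25 of up to 1.21-fold and 1.20-fold. NVP and Ro25 differed by 0.01 (-0.14 to 0.15). Each compound was used at 1 dose, and the doses differ, so these values compare the treatments as applied and not the compounds at a matched dose. The 3 comparisons with vehicle share the vehicle arrays, and the comparisons of AP5 share the AP5 arrays.

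The 3 genes outside the family whose pattern over the 19 arrays was most like that of Camkk1 were Ccdc166 (a coiled-coil gene, named here through a synonym in RefSeq), Aagab (a gene of clathrin adaptor assembly) and Crcp. Likeness was the root mean square difference between centred log2 ratios, which was 0.0762, 0.0832 and 0.0926 for these genes and 0.383 for the median gene; the SD of Camkk1 itself over the arrays was 0.38. Their AP5 minus vehicle differences were 0.80, 0.75 and 0.86. Genes chosen for likeness to Camkk1 over the same arrays have similar differences by construction. All arrays share the reference RNA and the slides, so likeness on this measure is a description.

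Camkk2 (CaMKKβ) moved the other way. Its ratio was 0.66, 0.52, 0.70, 0.84 and 0.09 with AP5 and 1.09, 0.99, 1.03, 1.41 and 1.43 with vehicle. It was 1.14, 1.25, 0.90 and 0.52 with NVP and 0.88, 1.40, 0.76, 1.27 and 0.76 with Ro25. AP5 and vehicle did not overlap, AP5 5 was the lowest array of all, and NVP and Ro25 spanned the gap between the groups. With AP5, Camkk2 fell by 0.63 on the log2 scale (SE 0.16, interval -0.97 to -0.29, adjusted p = 0.0113), to 0.646 of the vehicle ratio. Camkk2 had 2 probes, which were also tested one by one, with p adjusted over all kept probes, of which 17.0% passed. The brighter probe (chr5:122993963-122994022, minus strand, mm8) changed by -0.63 and the other (chr5:122992133-122992192, minus strand) by -0.54 (adjusted p = 0.0115 and 0.0114). The second probe read -0.45, -0.37, -0.12, -0.06 and -0.79 with AP5 and 0.00, -0.02, 0.10, 0.43 and 0.42 with vehicle, again without overlap.

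Camkk2 did not separate AP5 from the other antagonists at the threshold. AP5 minus NVP was -0.39 (-0.75 to -0.03, adjusted p = 0.265) and AP5 minus Ro25 was -0.45 (-0.79 to -0.11, adjusted p = 0.124). NVP minus vehicle was -0.24 (-0.60 to 0.12) and Ro25 minus vehicle -0.18 (-0.52 to 0.16). The group means ran in the order vehicle 1.19, Ro25 1.01, NVP 0.95 and AP5 0.56, and neighbours in that order differed by less than their SDs of 0.21 to 0.32, apart from NVP and AP5.

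**Figure D2:**
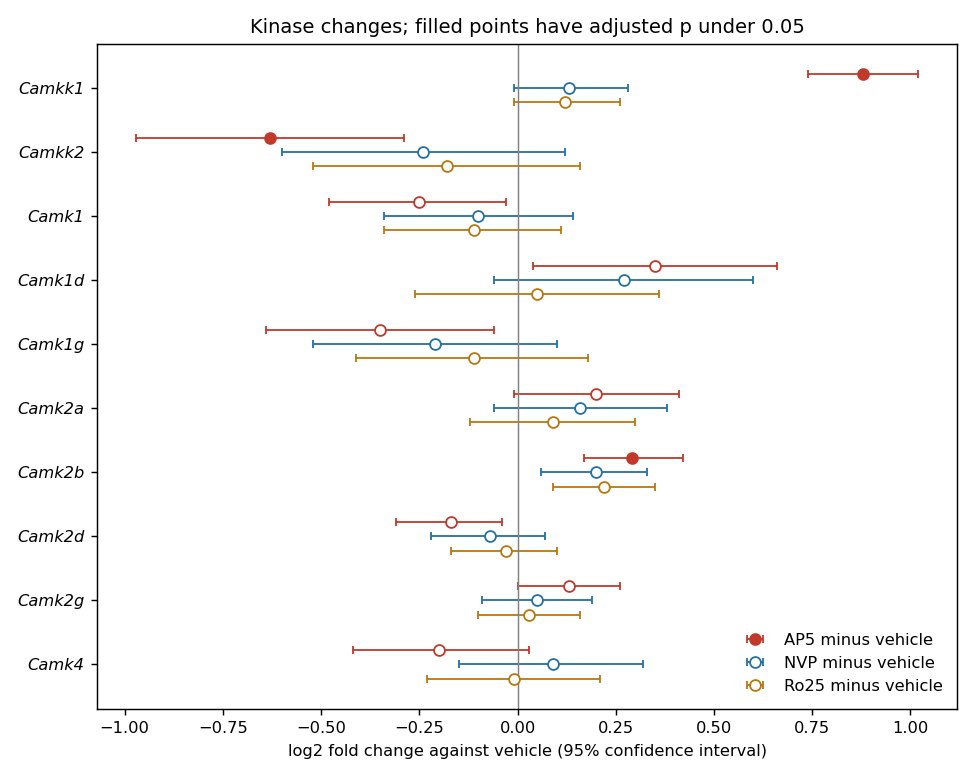
Log2 fold change against vehicle (horizontal axis, points with 95% confidence intervals) of each kinase with AP5, NVP and Ro25; filled points have an adjusted p under 0.05. Only AP5 has filled points: Camkk1 at 0.88, Camkk2 at -0.63 and Camk2b at 0.29.

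None of the kinases directly downstream of the CaMKKs passed the test with AP5. Camk1 (CaMKIα) had ratios from -1.16 to -0.62 (median -1.03) with AP5 and from -0.86 to -0.43 (median -0.76) with vehicle. Its difference was -0.25 (-0.48 to -0.03, adjusted p = 0.111), and its second probe gave -0.19. Camk1d (CaMKIδ) ranged from 2.27 to 2.83 with AP5 and from 2.10 to 2.53 with vehicle, a difference of 0.35 (0.04 to 0.66, adjusted p = 0.113). The other Camk1d probes gave 0.24 and 0.21. For both genes the groups overlapped, and all kept probes of a gene had the same sign.

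Camk1g (CaMKIγ, a membrane-anchored CaMKI of neurons) had ratios of 1.38, 1.21, 1.27, 1.50 and 1.38 with AP5 and 1.19, 1.88, 2.08, 1.93 and 1.40 with vehicle. It read 1.49, 1.40, 1.36 and 1.70 with NVP and 1.51, 1.55, 1.90, 1.37 and 1.59 with Ro25. The vehicle arrays were widely spread (SD 0.38 against 0.11 with AP5), with vehicle 1 the lowest array of all 19. The difference of -0.35 (-0.64 to -0.06) did not pass (adjusted p = 0.0913). Without vehicle 1, it was -0.48 (adjusted p = 0.013).

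The red channel alone gave a different answer for Camk1g, whose reference signal varied between arrays along with the neuron signal. On quantile-normalized red log2 signals, Camk1g read 10.08, 9.92, 10.16, 10.05 and 10.37 with AP5 and 10.61, 10.71, 11.30, 10.43 and 11.02 with vehicle. The lowest NVP array was at 10.45 and the lowest Ro25 array at 10.39, so all AP5 arrays lay below all 14 others, as they did for 1.26% of all genes. On this scale Camk1g fell by 0.70 with AP5 against vehicle (adjusted p = 0.00682), with 10.9% of all genes passing. AP5 minus NVP was -0.61 (adjusted p = 0.0415, where 4.01% of all genes passed) and AP5 minus Ro25 -0.58 (adjusted p = 0.0333, where 5.59% passed). The reference channel moved by -0.21 between AP5 and vehicle arrays (-0.50 to 0.09, adjusted p = 0.384), and its values ran from 7.69 to 8.59 in the vehicle group alone.

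Camk4 (CaMKIV) gave probes of opposite sign. The representative probe read 1.19, 1.16, 1.27, 1.39 and 1.15 with AP5 and 1.23, 1.25, 1.65, 1.43 and 1.58 with vehicle, a difference of -0.20 (-0.42 to 0.03, adjusted p = 0.217). The other probe ranged from 2.85 to 3.44 with AP5 and from 2.52 to 3.09 with vehicle, a difference of 0.21 (-0.07 to 0.49, adjusted p = 0.305). Neither passed the threshold, both overlapped between groups, and the mean of both probes differed by 0.01. One further probe, listed under an older name that RefSeq gives as a synonym of Camk4, had red signal well above background on 1 array and was not used.

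Among the CaMKII genes, Camk2b (CaMKIIβ, the subunit that binds actin filaments) had a higher ratio with AP5. It read 4.81, 4.80, 4.87, 4.92 and 4.84 with AP5 and 4.47, 4.74, 4.50, 4.54 and 4.51 with vehicle. NVP arrays read 4.74, 4.78, 4.62 and 4.86, and Ro25 arrays 4.87, 4.63, 4.79, 4.84 and 4.72. AP5 and vehicle did not overlap, with vehicle 2 at 4.74 just below the lowest AP5 array at 4.80. The difference was 0.29 (0.17 to 0.42, adjusted p = 0.00239), 1.23-fold. NVP minus vehicle was 0.20 (0.06 to 0.33, adjusted p = 0.373) and Ro25 minus vehicle 0.22 (0.09 to 0.35, adjusted p = 0.531). AP5 exceeded NVP by 0.10 (-0.04 to 0.23) and Ro25 by 0.08 (-0.05 to 0.20).

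The higher Camk2b ratio was not seen in the quantile-normalized neuron RNA channel. In red alone, Camk2b was at 14.76 ± 0.10 (SD, n = 5) with AP5 and 14.84 ± 0.10 (SD, n = 5) with vehicle, a difference of -0.08 (-0.28 to 0.11, adjusted p = 0.64). In green, which carries the same reference RNA on every array, it was at 8.74 ± 0.02 with AP5 and 9.03 ± 0.14 with vehicle, a difference of -0.29 (-0.45 to -0.13, adjusted p = 0.0373). In green alone, 5.19% of all genes passed between AP5 and vehicle arrays. Before normalization, the Camk2b red signal had a median of 31402 with AP5 (26955 to 35047) and 26099 with vehicle (23062 to 28861). The unprocessed green signal had a median of 436.1 with AP5 (423.5 to 465.8) and 490.4 with vehicle (410.8 to 605.1), so the groups overlapped in both channels. When the arrays were brought to 1 spread of log ratios, Camk2b was -0.16 (adjusted p = 0.308).

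**Figure D3:**
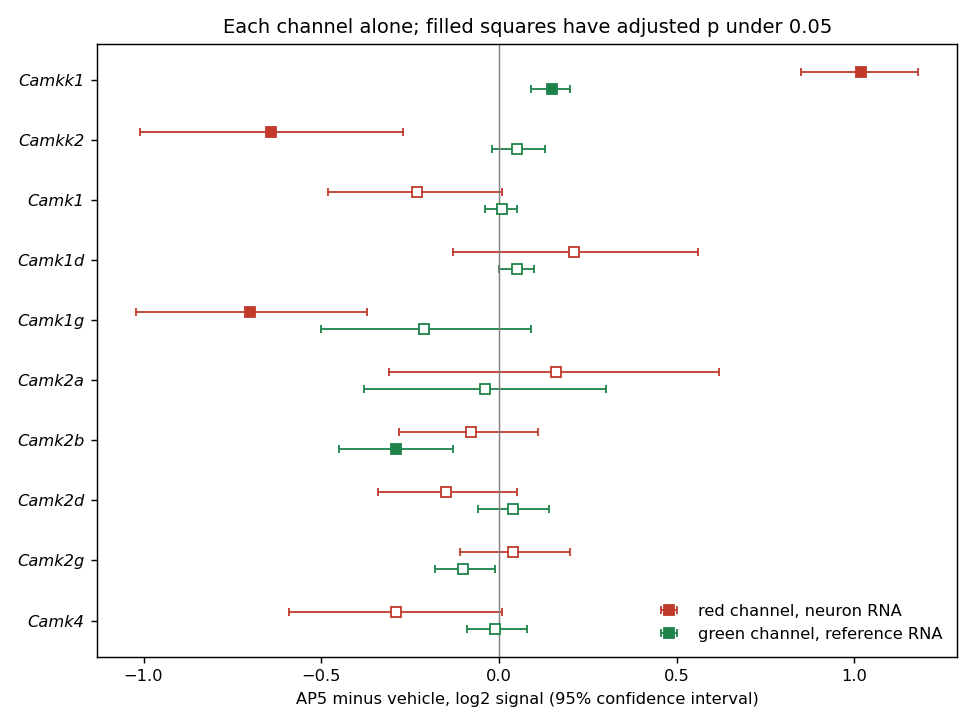
AP5 minus vehicle difference in log2 signal (horizontal axis, 95% confidence intervals) of each kinase in the red channel, which holds neuron RNA, and in the green channel, which holds reference RNA; filled squares have an adjusted p under 0.05. Camkk1 is filled in both channels at 1.02 and 0.15, Camkk2 and Camk1g only in red, and Camk2b only in green.

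Both CaMKK genes passed in red alone. Camkk1 differed by 1.02 in red (0.85 to 1.18, adjusted p = 2.11e-07) and by 0.15 in green (adjusted p = 0.0049), so the green difference makes the ratio smaller than the red difference. Camkk2 differed by -0.64 in red (-1.01 to -0.27, adjusted p = 0.0246) and by 0.05 in green (adjusted p = 0.385).

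The other CaMKII genes did not pass the threshold. Camk2a (CaMKIIα, the main subunit of excitatory forebrain neurons) ranged from 3.00 to 3.31 with AP5 and from 2.65 to 3.13 on the 4 vehicle arrays that had a value, a difference of 0.20 (-0.01 to 0.41, adjusted p = 0.171). Its spot on vehicle 5 had been marked by the extraction software and was left out of the fit. Vehicle 5 had 1642 marked gene spots, against 117 to 266 on each of the other arrays. A second Camk2a probe, with red well above background on 5 arrays only, gave 0.05. Camk2d (CaMKIIδ) ranged from -0.53 to -0.34 with AP5 and from -0.47 to -0.12 with vehicle, a difference of -0.17 (-0.31 to -0.04, adjusted p = 0.0704). Camk2g (CaMKIIγ) ranged from 1.01 to 1.30 with AP5 and from 0.97 to 1.18 with vehicle, a difference of 0.13 (0.00 to 0.26, adjusted p = 0.167).

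The Camk2d probes differed in whether they gave a signal above background. Of 5 Camk2d probes, 3 had red signal well above background on all 19 arrays and gave AP5 minus vehicle differences of -0.17, -0.18 and -0.10. The remaining 2 probes never had red signal well above background. One of them (chr3:126801469-126801528, plus strand, mm8) had green signal well above background on all 19 arrays. The kept probe with the highest brightness lies at chr3:126836789-126836848 on the same strand. Which exons these probes lie in was not analysed here.

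Over the family, the median absolute change with AP5 was 0.27, against 0.11 over all genes, and the median signed change was -0.02, against 0.01. The corresponding absolute medians were 0.14 and 0.06 with NVP, and 0.10 and 0.05 with Ro25. At an unadjusted p under 0.05, 7 of the 10 kinases stood out with AP5, against 31.4% of all genes. The 3 kinases that passed the adjusted threshold were also the 3 whose AP5 and vehicle arrays did not overlap, against 11.9% of all genes without overlap. Both criteria use the same values, so the second adds no separate evidence.

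Treatment was tied to the slide. The 19 arrays lay on 5 slides, scanned on 1 day, and no slide held both AP5 and vehicle arrays: AP5 1 to 4 filled 1 slide, and all vehicle arrays except vehicle 2 filled another. With the slide as a fixed block, AP5 minus vehicle rests on the arrays that link slides, and 10 genes and 0 kinases passed. Camkk1 was then 0.88 (adjusted p = 0.207), Camkk2 -1.14 (adjusted p = 0.455) and Camk2b 0.09 (adjusted p = 0.852). On the only slide shared by AP5 and NVP (1 and 2 arrays), AP5 minus NVP was 0.91 for Camkk1, -0.93 for Camkk2, 0.15 for Camk2b and -0.04 for Camk1g. Camkk1 on the slide shared by Ro25 and vehicle (3 and 1 arrays) differed by -0.02.

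**Figure D4:**
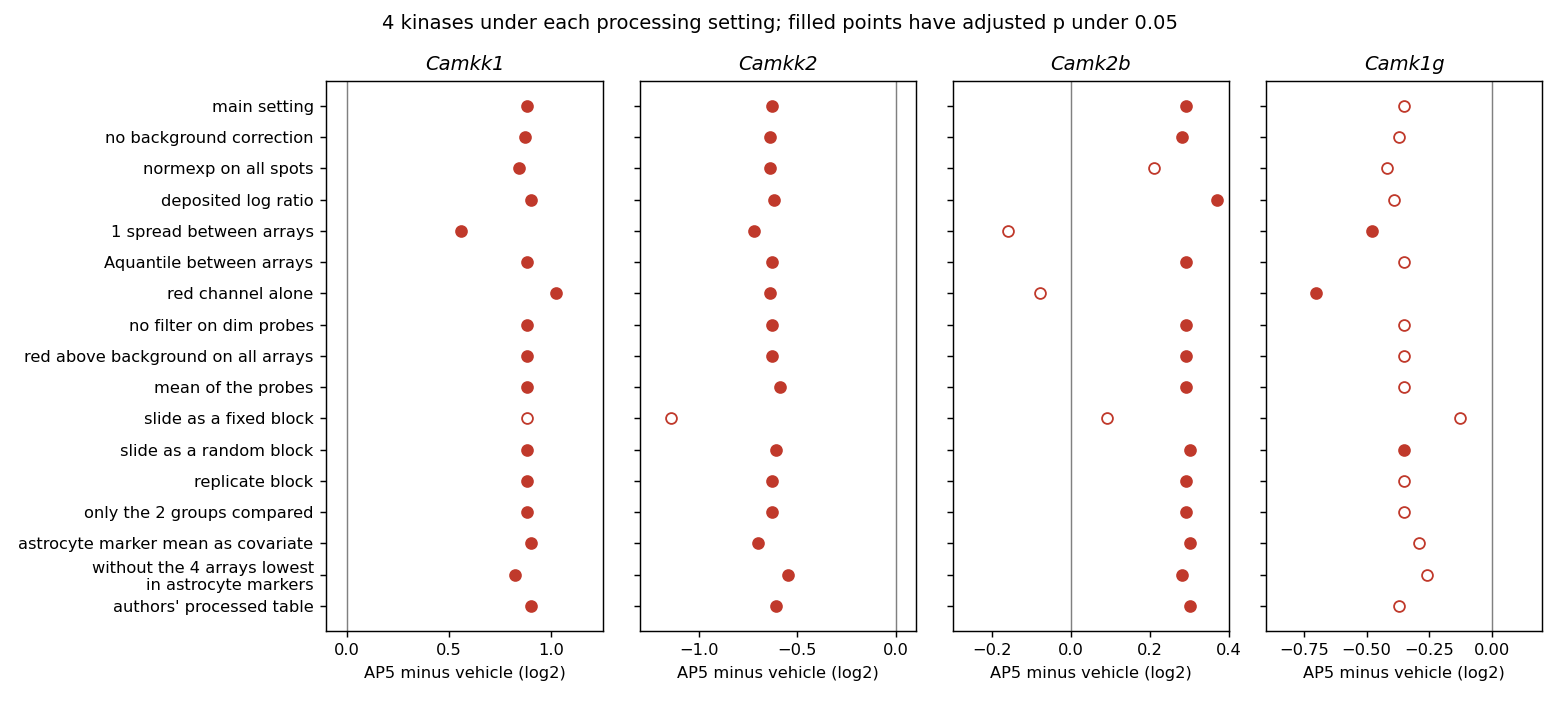
AP5 minus vehicle difference (horizontal axis, log2) of Camkk1, Camkk2, Camk2b and Camk1g in the main setting and under each other way of processing (vertical axis); filled points have an adjusted p under 0.05. Camkk1 stays between 0.56 and 1.02 and Camkk2 between -1.14 and -0.55, Camk2b turns to -0.16 and -0.08 in 2 settings, and Camk1g is filled in 3.

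The labelled cell type was checked against markers. All 11 pan-neuronal markers were measured, with a mean log2 ratio of 4.99 ± 0.09 with AP5 and 4.75 ± 0.14 with vehicle (SD, n = 5 each). All 17 astrocyte markers were measured too, at 3.70 ± 0.51 with AP5, 3.64 ± 0.52 with NVP, 3.54 ± 0.50 with Ro25 and 3.50 ± 0.40 with vehicle, so the cultures also held astrocyte RNA. Microglial markers (11 of 14 measured; C1qc, P2ry12 and Itgam were not) lay at -2.20 with AP5 and -2.06 with vehicle. Vascular and fibroblast markers (10 of 12 measured; Pecam1 and Cdh5 were not) lay at -3.11 and -3.18. Oligodendrocyte lineage markers (13 of 14 measured) were also present, at 2.17 ± 0.27 and 2.00 ± 0.27. GABAergic interneuron markers lay at 3.18 ± 0.07 with AP5 and 2.92 ± 0.12 with vehicle, with every AP5 array above the highest vehicle array (3.05), and excitatory neuron markers at 3.01 ± 0.12 and 2.86 ± 0.14, with overlap.

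Marker genes of several cell types passed between AP5 and vehicle as well. Higher with AP5 were 4 of 11 pan-neuronal, 5 of 14 GABAergic, 4 of 13 excitatory, 2 of 17 astrocyte, 2 of 13 oligodendrocyte lineage and 1 of 10 vascular markers. Lower were 1 excitatory and 3 of 11 microglial markers. Of all genes, 10.8% were called higher and 7.22% lower, and the astrocyte and vascular counts lie near the first share. In red alone, 2 of the marker calls passed in the same direction among excitatory, 1 among microglial and 1 among vascular markers. In the other 4 lists 0 did, and 10.9% of all genes passed in red alone. The part of these differences in the kinase results was not tested, beyond the fits with the astrocyte markers given next.

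Some kinases had their extreme values on the arrays lowest in astrocyte markers. In each group 1 array was lowest in astrocyte markers: AP5 5, NVP 4, Ro25 3 and vehicle 3, between 2.70 and 2.88. Camk1d and Camk2g had their lowest value of the group on that array in 4 of 4 groups, Camk2d in 3 and Camkk2 in 2, while Camk1g had its highest value there in 3 of 4. Camkk1 and Camk2b were lowest there in none and highest in 1 group each, and Camk2a was highest in 2. Camk2g read 1.01 on AP5 5 against 1.23 to 1.30 on the other AP5 arrays. Camk1d read 2.27 there against 2.56 to 2.83. The remaining arrays did not keep to this order. Camk1d read 2.42 on NVP 3, with a marker mean of 4.07, and 2.90 on NVP 2, with a mean of 3.74. How many of all genes had such extremes on these arrays was not counted.

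**Figure D5:**
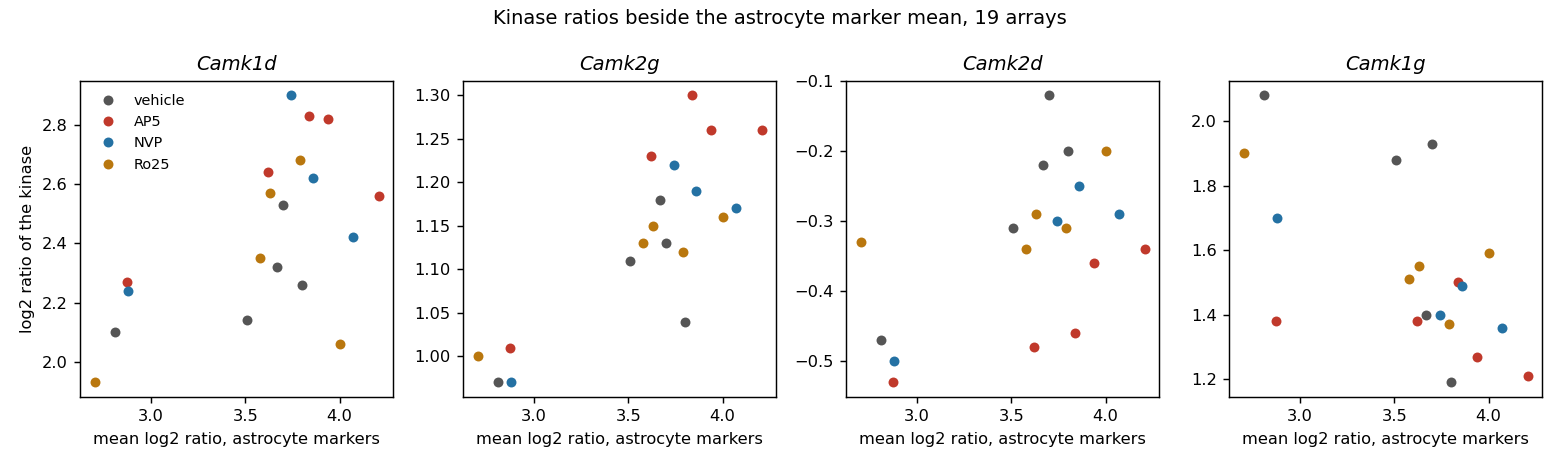
Log2 ratio of Camk1d, Camk2g, Camk2d and Camk1g (vertical axes) against the mean log2 ratio of 17 astrocyte markers (horizontal axis) on 19 arrays, coloured by group. The 4 arrays with a marker mean between 2.70 and 2.88 hold the lowest Camk1d and Camk2g value of each group.

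With the astrocyte marker mean as a covariate, the AP5 differences of Camkk1, Camkk2 and Camk2b were 0.90, -0.70 and 0.30, all past the threshold. Camk1 (-0.30, adjusted p = 0.0102), Camk2a (0.24, adjusted p = 0.0343) and Camk2d (-0.21, adjusted p = 0.00282) then passed as well, in a fit in which 5678 genes passed. Without the 4 arrays lowest in astrocyte markers, Camkk1 was 0.82, Camkk2 -0.55 and Camk2b 0.28, and Camk2d (-0.20) and Camk2g (0.15) joined them. That fit was chosen after seeing the data, and its share of all genes called is not given here.

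The surrounding pathway was followed through 6 lists of genes, to be read against 18.0% of all genes called and a median change of 0.01. The lists were chosen with earlier results of these data known, so their counts are descriptions and not tests. Among calmodulins and calmodulin reservoirs, 3 of 11 were higher with AP5 and 0 lower (median change 0.03). They include Pcp4, a calmodulin-binding peptide (0.70, adjusted p = 0.000925), and Nrgn, the postsynaptic calmodulin reservoir neurogranin (0.35, adjusted p = 0.0116). In red alone Pcp4 was -0.18 and Nrgn 0.04, and neither passed. Among CaMK inhibitors and phosphatases, 2 of 11 were higher (median 0.15): the CaMK phosphatases Ppm1f (0.38, adjusted p = 0.00308) and Ppm1e (0.28, adjusted p = 0.0238). Ppm1f was 0.40 in red alone and passed, while Ppm1e was 0.00.

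In a list of CaMKK targets outside the family and genes linked to those targets, 2 of 8 tested genes were higher and 0 lower (median -0.03). Both encode subunits of AMP-activated protein kinase, whose catalytic subunit CaMKKβ phosphorylates. The β2 subunit gene Prkab2 read 1.81 ± 0.17 with AP5 and 0.59 ± 0.14 with vehicle (SD, n = 5 each), a difference of 1.22 (SE 0.10, limma adjusted p = 1.81e-07). It was 1.16 higher with AP5 than with NVP (adjusted p = 1.78e-06) and 1.28 higher than with Ro25 (adjusted p = 2.96e-07). With the slide as a fixed block it was 1.91 (adjusted p = 0.0253), the only one of the 25 calls over the 6 lists that passed in that fit. The α1 catalytic subunit gene Prkaa1 was 0.35 higher than in vehicle (adjusted p = 0.00236), 0.16 in its second probe.

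Among other calmodulin-regulated and CaMK-like kinases, 4 of 16 were higher and 0 lower (median 0.05). Dclk2, a doublecortin-like kinase, was 0.56 higher (adjusted p = 6.12e-08), Trio, a guanine nucleotide exchange factor with a kinase domain, 0.55 (adjusted p = 0.00012) and Dapk1, a calmodulin-regulated death-associated kinase, 0.60 (adjusted p = 0.00113). Dclk2 (0.52) and Trio (0.49) passed in red alone, and Dapk1 (0.30, adjusted p = 0.0684) did not. Dclk2 was also 0.40 above NVP and 0.39 above Ro25, both past the threshold.

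Among nuclear targets of the CaMKs, 4 of 16 were higher and 3 lower (median 0.07). Hdac5, a class IIa histone deacetylase that CaMKs phosphorylate, was lower with AP5 at 0.19 ± 0.03 against 0.76 ± 0.07 with vehicle (SD, n = 5 each), a fitted difference of -0.57 (limma adjusted p = 1.39e-07). The transcription factor genes Mef2d (0.38, adjusted p = 0.00297) and Creb1 (0.32, adjusted p = 0.00413) were higher, but their 3 probes each ranged from -0.13 to 0.38 and from 0.03 to 0.32. Among synaptic partners and substrates of CaMKII, 4 of 21 were higher and 3 lower (median 0.15). Nos1, the neuronal nitric oxide synthase, was 1.10 higher (adjusted p = 1.09e-06), and Arc, an activity-regulated synaptic gene, was lower by a log2 change of -1.16 (adjusted p = 1.27e-05). Gria1, an AMPA receptor subunit, was 0.54 higher (adjusted p = 0.00304), but -0.06 in red alone. Of the 25 calls over all these lists, 13 also passed in the same direction in red alone. With the slide as a fixed block, the adjusted p was 0.344 for Hdac5, 0.125 for Nos1, 0.506 for Arc, 0.215 for Dclk2 and 0.327 for Trio. No gene of the 6 lists passed with NVP or Ro25 against vehicle.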

How the data were processed

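Per the file headers, scanner intensities of both channels on 19 two-colour Agilent arrays (45018 features, 41174 gene probes) were extracted with Feature Extraction 9.5.3.1, while the submitters' processing notes name version 11.0. Intensities as deposited were corrected here with normexp (offset 50) against the local background, after removal of spots the software had marked, and normalized by loess within arrays. A probe entered if its red signal was recorded as well above background on 4 or more arrays, and a gene was its brightest kept probe. The dyes were never swapped. Median red signals ran from 135.5 to 177.8 per array, no gene spot was saturated, and precision is limited by how many arrays there are. The deposited log10 ratio of the extraction software, and the authors' deposited table of log2 values (20674 probes, 10 of them kinase probes; its centring is unknown), served as alternatives. The columns of that table correlated with the ratios computed here at 0.9986 to 0.9998 and had medians of 0.03453 to 0.04776. Tests used limma (version 3.58.1, R version 4.3.3) with 1 mean per group, two-sided moderated tests, and Benjamini-Hochberg adjustment at 0.05. The gene-wise limma fit was tested on simulated log ratios without a slide effect, and the other steps were not tested in this way.

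The kinases and gene lists were chosen with earlier results of these data known. All 10 kinases are named, with up to 3 called genes per list by adjusted p (1 of these is not reported here), and the 3 genes nearest to the called kinase with the largest change. No pair of arrays shared more than 0.0161% of red signals. Same-numbered arrays of different groups did not deviate together: 8 of 27 pairs correlated over 0.1, from -0.624 to 0.766. In astrocyte markers the lowest arrays of the groups were AP5 5, NVP 4, Ro25 3 and vehicle 3. Of these only Ro25 3 and vehicle 3 share a number, and that pair correlated at 0.766. Whether arrays pair across groups in another order was not tested.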

Additional observations from a re-analysis of the deposited data

Results flagged for a closer look

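Dixon's test singled out 3 of the 40 kinase and group combinations tested, and chance alone picks out about 1 in 20. Camk2b on vehicle 2 read 4.74, above the 4.47 to 4.54 of the other vehicle arrays; vehicle 2 is the only vehicle array on a slide with Ro25 arrays. Camk2g on AP5 5 read 1.01, below the 1.23 to 1.30 of the other AP5 arrays, and without that array its AP5 difference was 0.18 (limma adjusted p = 0.0419). Camk2g on Ro25 3 read 1.00, below 1.12 to 1.16. AP5 5 and Ro25 3 were the arrays of their groups with the lowest astrocyte marker means; whether this bears on the values was not tested.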

How the results depend on the processing

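The AP5 calls of Camkk1 and Camkk2 held under 15 of 16 other ways of processing and in all 19 fits that left out 1 array (0.85 to 0.91 and -0.70 to -0.51); the exception for both was the slide as a fixed block. Camkk1 was smallest (0.56) with 1 spread between arrays. Camk2b lost its call with normexp on all spots (0.21, adjusted p = 0.652) and with the slide as a fixed block, and turned with 1 spread (-0.16) and in red alone (-0.08); leaving out 1 array gave 0.27 to 0.34. The cause of these shifts was not tested. The number of kinases called with AP5 against vehicle was 0 with the slide as a fixed block, 5 with it as a random block (consensus correlation -0.0776), 6 with the astrocyte covariate and 5 when the 4 arrays with the lowest astrocyte markers were left out, an alternative chosen after seeing the data. Against NVP it was 2 in red alone, and against Ro25 2 in red alone and 3 with the astrocyte covariate. Leaving out 1 array gave 3 to 4 kinases against vehicle and 1 against NVP or Ro25. For AP5 against vehicle, the number of all genes called with the random block or without the 4 arrays is not given here. The kinase counts of these fits therefore have no background share beside them.

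The number of genes called with AP5 against vehicle was 863 with normexp on all spots, 2087 in red alone, 10 with the slide as a fixed block and 5678 with the astrocyte covariate (2612 to 3493 without 1 array). AP5 against NVP gave 276 with normexp on all spots, 190 with the slide as a fixed block, 518 with only the 2 groups in the fit and 1684 with the covariate (524 to 833 without 1 array; the count of 814 changed by over 1.5 times without NVP 1 or NVP 2). AP5 against Ro25 gave 436, 23 and 2214 with normexp on all spots, the fixed slide block and the covariate (871 to 1158). Ro25 against vehicle gave 2 in red alone, 2 with the covariate and 1 without the 4 arrays. Without vehicle 2, NVP and Ro25 against vehicle gave 4 and 2 genes (0 to 4 and 0 to 2 over all arrays left out). With the replicate block, 3 kinases were called with AP5 against vehicle and 1 against NVP and against Ro25, as without it; genes called were 3047, 530 and 891. The numbers did not pair the arrays.

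Signs also turned for changes that did not pass. With the slide as a fixed block, AP5 minus vehicle was -0.15 for Camk1d, -0.20 for Camk2g and 0.15 for Camk4; NVP minus vehicle was -0.03 for Camkk1, -0.14 for Camk2a, -0.07 for Camk2b and -0.04 for Camk2g; and Ro25 minus vehicle was -0.02 for Camkk1, -0.15 for Camk2a, -0.03 for Camk2b, 0.04 for Camk2d, -0.01 for Camk2g and 0.14 for Camk4. With 1 spread, AP5 minus vehicle was -0.02 for Camk2a; NVP minus vehicle -0.03 for Camkk1, -0.06 for Camk2b and -0.01 for Camk2g; and Ro25 minus vehicle -0.04 for Camk1d and -0.02 for Camk2g. In red alone, Camk2b was -0.01 with NVP and -0.03 with Ro25, and Camk4 -0.01 with NVP. Camk1d with Ro25 was -0.02 with no background correction, -0.40 with normexp on all spots and -0.06 in the deposited log ratio, and Camk2g with Ro25 was -0.01 with normexp on all spots. With the mean of the probes, Camk4 was 0.01 with AP5 and 0.02 with Ro25, and without the 4 arrays it was 0.05 with Ro25. Leaving out 1 array with Ro25 gave -0.04 to 0.14 for Camk1d, -0.02 to 0.14 for Camk2a, -0.08 to 0.0026 for Camk2d, -0.0023 to 0.05 for Camk2g and -0.08 to 0.06 for Camk4.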
